A study of Gallus gallus with 12 samples.

Results

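The dorsal mesentery is the double-faced sheet of tissue by which the gut tube is suspended in the body cavity. On its right side, 3 arrays of the coelomic epithelium that covers the sheet were set against 3 arrays of the mesenchyme that fills it, 6 of 12 arrays in all, in order to find the genes that distinguish the layers. The members were chosen by the array titles, and each epithelial array was paired with the mesenchymal array of the same number, taken here as the number of the experiment although the labels do not state this. The embryos were White Leghorn chickens at Hamburger-Hamilton stage 21, about day 3.5 of incubation. In each of 3 biological experiments the right and left epithelium and mesenchyme were cut by laser from frozen 8 µm sections, 1939 in total over the 4 compartments, and the amplified RNA of a compartment was hybridised to 1 Affymetrix array. Many sections were pooled on an array, so that any differences between embryos of an experiment are averaged. The sources used here do not state how the border between the layers was drawn or how many embryos an experiment held.

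A coelomic epithelium is a sheet with an apical surface towards the body cavity and a basement membrane beneath it. Its cells can leave the sheet by an epithelial to mesenchymal transition, lose apical polarity and enter the mesenchyme, where cells lie apart in a matrix of hyaluronan, proteoglycans and collagens together with vessels and blood cells. In the chick mesentery the sides come to differ at about this stage, the left becoming dense and the right loose, and the gut tube tilts to the left.

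Values are MAS5 signals, a linear measure of brightness for a probe set (the group of probes that reads a transcript), and all arrays had been scaled to the same trimmed mean of about 500.1. A floor was taken from 59 control probe sets without a chicken target, and 67.3% to 76.7% of an array's chicken probe sets exceeded it. Correlations between arrays of a right layer were 0.956 to 0.966, and those between the layers 0.947 to 0.965, so the layers were close to each other over the whole array. Epithelium array 3 had the highest floor (39.6) and lay farthest from its group. The 3 prime minus 5 prime log2 signal of GAPDH, a sign of RNA quality, was 0.947 to 1.30 in the epithelium and 1.11 to 1.28 in the mesenchyme (exact two-sided permutation p = 0.9, smallest possible 0.1).

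The labels were set beside marker genes. The marker lists were chosen with earlier results of these data known, so this is not an independent check of the labels. The summed signal of 25 coelomic epithelium markers was 42920 to 44383 on the epithelial and 29126 to 29947 on the mesenchymal arrays. The gap came mostly from bright members, PODXL and ALDH1A2 first, and 11 of the 25 had a negative difference. The 28 mesenchyme markers separated the layers far less, with 50841 to 53291 against 54254 to 57436. Common mesenchymal genes were bright in both layers: the intermediate filament gene VIM was at 23449.7 ± 500.3 in the epithelium and 25404 ± 1936 in the mesenchyme, and the transcription factor gene TWIST1 at 2934 ± 172 and 3058 ± 95.1 (mean ± SD over 3 arrays, as below). The probe set of FOXF1, a factor of gut mesenchyme, was not above the floor on any right array, and MSLN, the mesothelin gene of mature mesothelium, was above it on 2 of 3 arrays of each layer. WT1 and UPK3B were not among the measured genes.

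Markers of other cell types also differed between the layers. White blood cell markers (12 genes, 8 of them above the floor on all 6 arrays) summed to 1398 to 2093 in the epithelium and 5271 to 5649 in the mesenchyme, and endothelial markers (27 genes) to 2820 to 3857 and 6509 to 7348. Red blood cell markers ran the other way, at 70519 to 74143 and 54036 to 61816. The median globin signal was 13959 to 15286 in the epithelium and 11789 to 12060 in the mesenchyme (exact permutation p = 0.1, the smallest possible). Neural crest and neuron markers summed to 4397 to 5194 and 5333 to 6174. Germ cell markers (6483 to 7915 and 5287 to 6133) and gonad, adrenal and nephros markers (4979 to 5661 and 2921 to 4014) were higher in the epithelium. So were those of neural tube, notochord and somite muscle (541 to 592 and 348 to 437). The endoderm and liver sums overlapped between the layers. In pooled tissue of this kind, fewer cells of a type and less RNA per cell cannot be told apart.

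**Figure D1:**
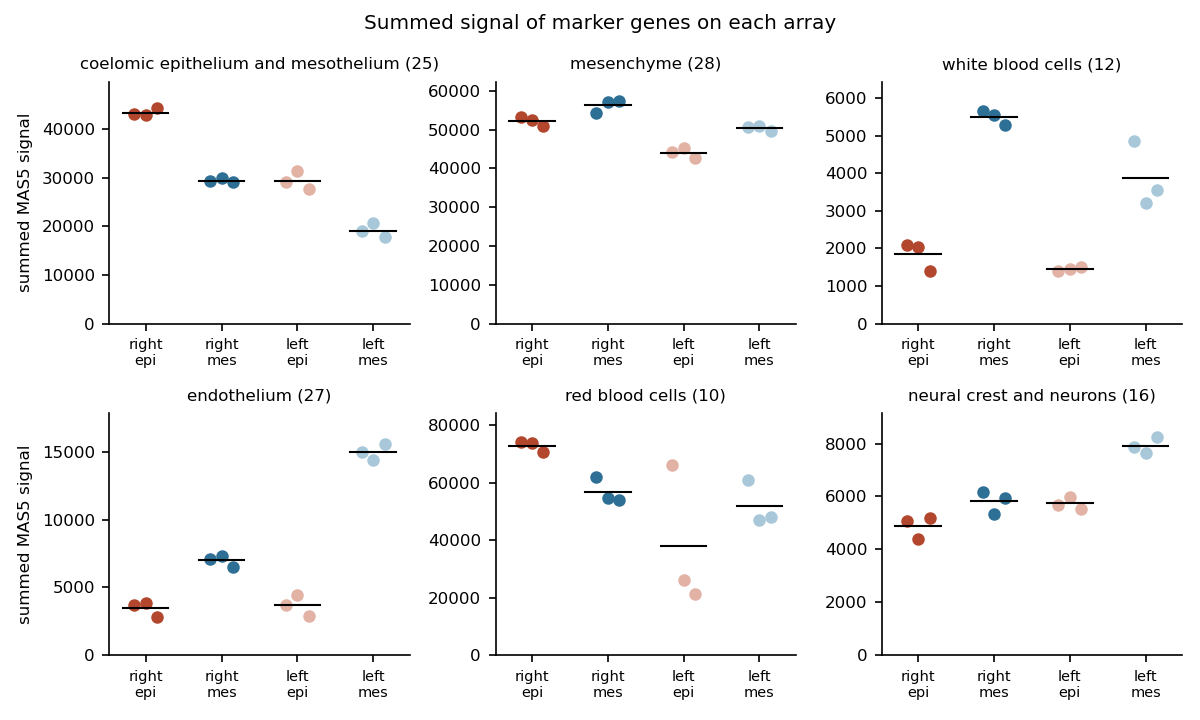
Summed MAS5 signal of marker genes on each of the 12 arrays (points; bars are means of 3 arrays; the number of genes is in brackets and each axis starts at 0). On the right, coelomic markers lie higher in epithelium (42920 to 44383 against 29126 to 29947), and white blood cell markers (1398 to 2093 against 5271 to 5649) and endothelial markers (2820 to 3857 against 6509 to 7348) lie higher in mesenchyme.

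The right epithelium differed from the right mesenchyme at 335 of 37693 chicken probe sets (0.889%), of which 148 (0.393%) were higher and 187 (0.496%) lower in the epithelium. The test was a linear model in limma on log2(signal + 16), paired by experiment, with a threshold of 0.05 on the Benjamini-Hochberg adjusted p over all chicken probe sets. Changes below are epithelium minus mesenchyme on this scale, with the standard error of the fit, and understate the change of dim genes. Among the 335, 223 changed at least 2-fold (97 higher and 126 lower), the median rise was 1.21 and the median fall -1.25. For each of the 335 the sign agreed across the 3 experiments, but they were selected by these same differences, so this is not added support. In 333 of the 335 the arrays of the layers did not overlap, which was also so in 14.1% of all probe sets. The 335 belonged to 214 named genes (88 higher and 126 lower), with 66 probe sets without a single symbol.

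A core of these calls did not rest on any single array. Of the 335, 104 passed again without each of the 6 right arrays in turn (44 higher and 60 lower), while the whole count without 1 array was 140 to 246. Leaving out experiment 1, 2 or 3 gave 83, 63 and 113 calls, and 39 of the 335 (24 higher and 15 lower, 22 named genes) passed under all 9 omissions. The named genes of this core were PODXL, SST1, LOC416696, CYGB, TFPI2, RDH10, KRT24, LMO7, CRB2, ITPK1 and BNC1 in the epithelium and PLXND1, HAPLN1, KCNIP4, PRSS23, SELENOP1, CDH5, HMOX1, SLC6A2, LUM, MGP and LECT2 in the mesenchyme. LMO7, KCNIP4, PRSS23, SELENOP1 and SLC6A2 are named here after their values were seen.

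**Figure D2:**
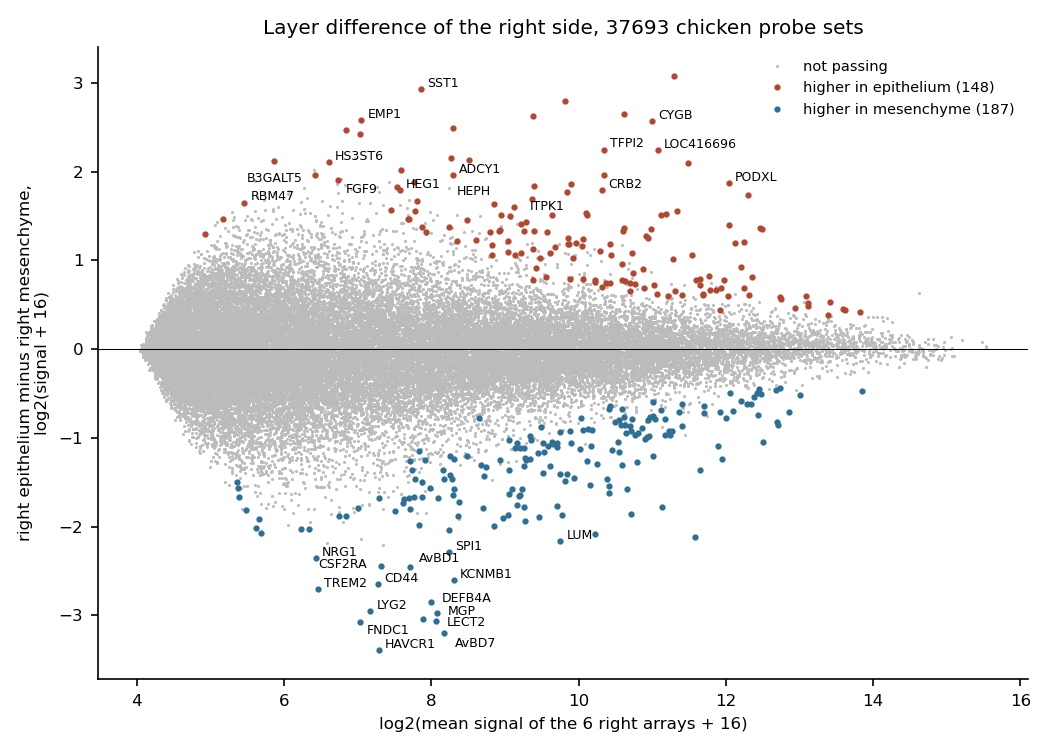
Layer difference of the right side (y axis, log2(signal + 16), positive where the epithelium is higher) against the mean signal of the 6 right arrays (x axis, log2) for 37693 chicken probe sets. The 148 red points passed as higher in epithelium and the 187 blue points as higher in mesenchyme. Symbols mark the 15 largest changes each way among genes that met the naming rule, each by its brightest probe set.

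Some genes known from coelomic epithelium rose. Of 25 such genes measured, each by its brightest probe set, 6 rose and 0 fell (10 higher and 2 lower at an unadjusted p under 0.05), where 0.569% of all 13008 named genes rose and 0.884% fell. At an unadjusted p under 0.05, here and for each list below, the shares over all named genes were 5.80% higher and 7.15% lower. The median of the list was 0.43, against -0.02 for all named genes. This list, like the others, was chosen with earlier results of these data known, so its counts are not an independent test. PODXL, whose product podocalyxin is a sialomucin of apical membranes, gave 7275.5, 6525 and 5990.5 in the epithelium and 1855.5, 1721 and 1784 in the mesenchyme in experiments 1, 2 and 3. Every epithelial array was far above every mesenchymal one, a rise of 1.87 ± 0.11, adjusted p = 3.9e-07. A second probe set of PODXL rose by 3.08 ± 0.18, from 514, 569 and 447 to 4194, 3644 and 5616.

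The zinc finger gene BNC1, expressed in mesothelium and other epithelia, gave 3293, 2941 and 2492 in the epithelium and 1078, 1164 and 1125 in the mesenchyme. It rose by 1.35 ± 0.16, adjusted p = 0.00044, and its other probe set by 1.51 ± 0.15. LRP2, the gene of the endocytic receptor megalin, gave 1013, 1038 and 1144.5 in the epithelium and 351, 446 and 462 in the mesenchyme and rose by 1.32 ± 0.21, with 5 of its 9 probe sets passing. The homeobox genes EMX2 and LHX9, both needed for the gonadal part of the coelomic lining in mice, rose by 1.46 ± 0.31 and 0.83 ± 0.16. ALDH1A2, whose product makes retinoic acid, was bright in both layers, at 14271 ± 996 and 10406 ± 629, and rose by 0.45 ± 0.10. Calls of EMX2 (any of the 6 arrays), LHX9 and ALDH1A2 (5 arrays each) and LRP2 (1 array) ended without single arrays, with adjusted p = 0.20 for EMX2 without mesenchyme array 1, 0.12 for LHX9 without mesenchyme array 1, 0.23 for ALDH1A2 without epithelium array 3 and 0.051 for LRP2 without mesenchyme array 1. Without the pairing the adjusted p was 0.078 for EMX2 and 0.05002 for ALDH1A2.

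Members of the same list that did not pass were spread widely. BNC2, ENPEP and LRRN4 had differences of 1.20, 1.18 and 1.02 with adjusted p = 0.064, 0.063 and 0.078. PTPRO, a receptor phosphatase gene of podocytes, lay the other way, at 1569.5 ± 304 in the epithelium and 2880.2 ± 334 in the mesenchyme (-0.88, adjusted p = 0.078). The mesodermal factor genes TBX18 (-0.20), TCF21 (-0.32) and GATA4 (-0.17) did not pass. PAX2, a factor of nephric tissue, was at 184 ± 56.3 against 34.9 ± 30.1 (2.16, adjusted p = 0.065). Of 11 genes listed for gonad, adrenal and nephros LHX9 alone passed (2 higher and 2 lower at an unadjusted p under 0.05).

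Some apical polarity genes and keratins also rose. CRB2, the gene of a Crumbs protein that marks the apical membrane, gave 1729.8, 2178.5 and 1946.5 in the epithelium and 466, 776 and 459.7 in the mesenchyme. The arrays did not overlap, the rise was 1.79 ± 0.22, adjusted p = 0.00052, and 4 of its 6 probe sets passed, while another differed by -0.07. PARD6B, a scaffold of the apical PAR complex, rose by 1.47 ± 0.31, and AFDN, the gene of afadin, which links nectins to actin at adherens junctions, by 1.01 ± 0.13, adjusted p = 0.0010. These were 3 of 43 polarity and junction genes, none of which fell (8 higher and 1 lower at an unadjusted p under 0.05), and the list median was 0.08. PARD6B was lost without any 1 of the 6 arrays (adjusted p = 0.15 for PARD6B without mesenchyme array 1).

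Most junction genes did not pass. The adhesion gene EPCAM was at 5755.5 ± 177 and 4360.2 ± 269 (0.40, adjusted p = 0.067), E-cadherin CDH1 at 443 ± 121 and 360.1 ± 88.8 (0.28) and N-cadherin CDH2 at 6231 ± 605 and 4734 ± 633 (0.40). Desmoplakin, DSP, had a difference of 0.62 (adjusted p = 0.064). LMO7, whose product binds afadin at junctions, rose by 1.84 ± 0.18, adjusted p = 5.1e-05 on the probe set that passed, with 1009.5, 1175 and 919 in the epithelium and 309, 265 and 256 in the mesenchyme.

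Of 16 keratins and epithelial regulators 2 rose and 0 fell (3 higher and 0 lower at an unadjusted p under 0.05; median 0.19). KRT24, a type I keratin, gave 6036, 6066 and 6415 in the epithelium and 3112, 2469.7 and 2535 in the mesenchyme, a rise of 1.19 ± 0.12, adjusted p = 5.4e-05. All 3 KRT24 probe sets passed, with rises of 1.19 to 1.86. KRT7, a simple epithelial keratin, was at 10491 ± 463 and 7298 ± 227 and rose by 0.52 ± 0.10, a call that ended without 4 of the 6 arrays (adjusted p = 0.13 for KRT7 without epithelium array 2).

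Several of the largest epithelial rises lay outside these lists. CYGB, the gene of the oxygen-binding protein cytoglobin, gave 2745, 3524 and 3991 in the epithelium and 297, 1049 and 544 in the mesenchyme and rose by 2.57 ± 0.29, adjusted p = 0.00023. TFPI2, a secreted inhibitor of serine proteases, gave 2597, 1967 and 1839 in the epithelium and 495, 378.5 and 429.5 in the mesenchyme and rose by 2.25 ± 0.20, adjusted p = 1.8e-05. SST1, the gene of the peptide hormone somatostatin, gave 350.1, 379.7 and 450.2 in the epithelium and 36.6, 27.3 and 50.6 in the mesenchyme, a rise of 2.93 ± 0.35, adjusted p = 0.00037, with 1 of its 3 probe sets passing and another at -0.07. Each of these had epithelial arrays well clear of the mesenchymal ones.

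The uncharacterised gene LOC416696 rose on both its probe sets, by 2.24 ± 0.18 and 2.65 ± 0.17, and on the brighter gave 3282, 4009 and 3377 in the epithelium and 813, 687 and 709.5 in the mesenchyme. ITPK1, the gene of an inositol phosphate kinase, rose by 1.77 ± 0.20, adjusted p = 0.00027, from 400.4 ± 34.7 to 1412 ± 171. HEPH, the gene of the ferroxidase hephaestin, rose by 1.64 ± 0.24, but only 1 of its 5 probe sets passed. Of the 5, 3 had a positive difference, and the lowest was -0.57. MFGE8, a secreted protein that bridges cells and dying neighbours, and GJA1, the gap junction gene connexin 43, rose by 1.21 ± 0.16 and 1.19 ± 0.19 and are named after their values were seen.

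Dimmer genes completed the 15 largest rises among genes read by their brightest probe sets. Probe sets that were not the brightest of their gene are not ranked here, such as those of LRP2 (2.62 ± 0.46) and CAB39L (2.47 ± 0.39). EMP1, the gene of an epithelial membrane protein, was at 204, 208 and 218 in the epithelium and above the floor on 1 of 3 mesenchymal arrays (2.58 ± 0.42). HS3ST6, whose product sulfates heparan sulfate, was at least 5.14-fold higher in the epithelium and RBM47, an RNA-binding protein gene, at least 1.83-fold, since neither was above the floor on any mesenchymal array (a bound takes the higher of the floor and the dim signal as the dim group's level). ADCY1, an adenylate cyclase gene (1.96 ± 0.44), B3GALT5, a galactosyltransferase gene (1.96 ± 0.44), and HEG1, the gene of a transmembrane receptor (1.79 ± 0.37), also passed. B3GALT5 was above the floor on 1 of 3 mesenchymal arrays. A positive difference was seen on only 1 of 3 HEG1 probe sets, on 2 of 3 for RBM47 and on 5 of 7 for ADCY1. Their lowest values were -0.40, -0.39 and -0.12. ADCY1, B3GALT5 and RBM47 were lost without any 1 of the 6 arrays, HEG1 without 5, HS3ST6 without 4 and EMP1 without mesenchyme array 1, with adjusted p = 0.28 for B3GALT5 without mesenchyme array 3, 0.24 for ADCY1 without mesenchyme array 2, 0.19 for RBM47 without mesenchyme array 3, 0.18 for HEG1 without mesenchyme array 1, 0.078 for HS3ST6 without epithelium array 2 and 0.054 for EMP1 without mesenchyme array 1. Without the pairing ADCY1 and HEG1 had adjusted p = 0.23 and 0.062.

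**Figure D3:**
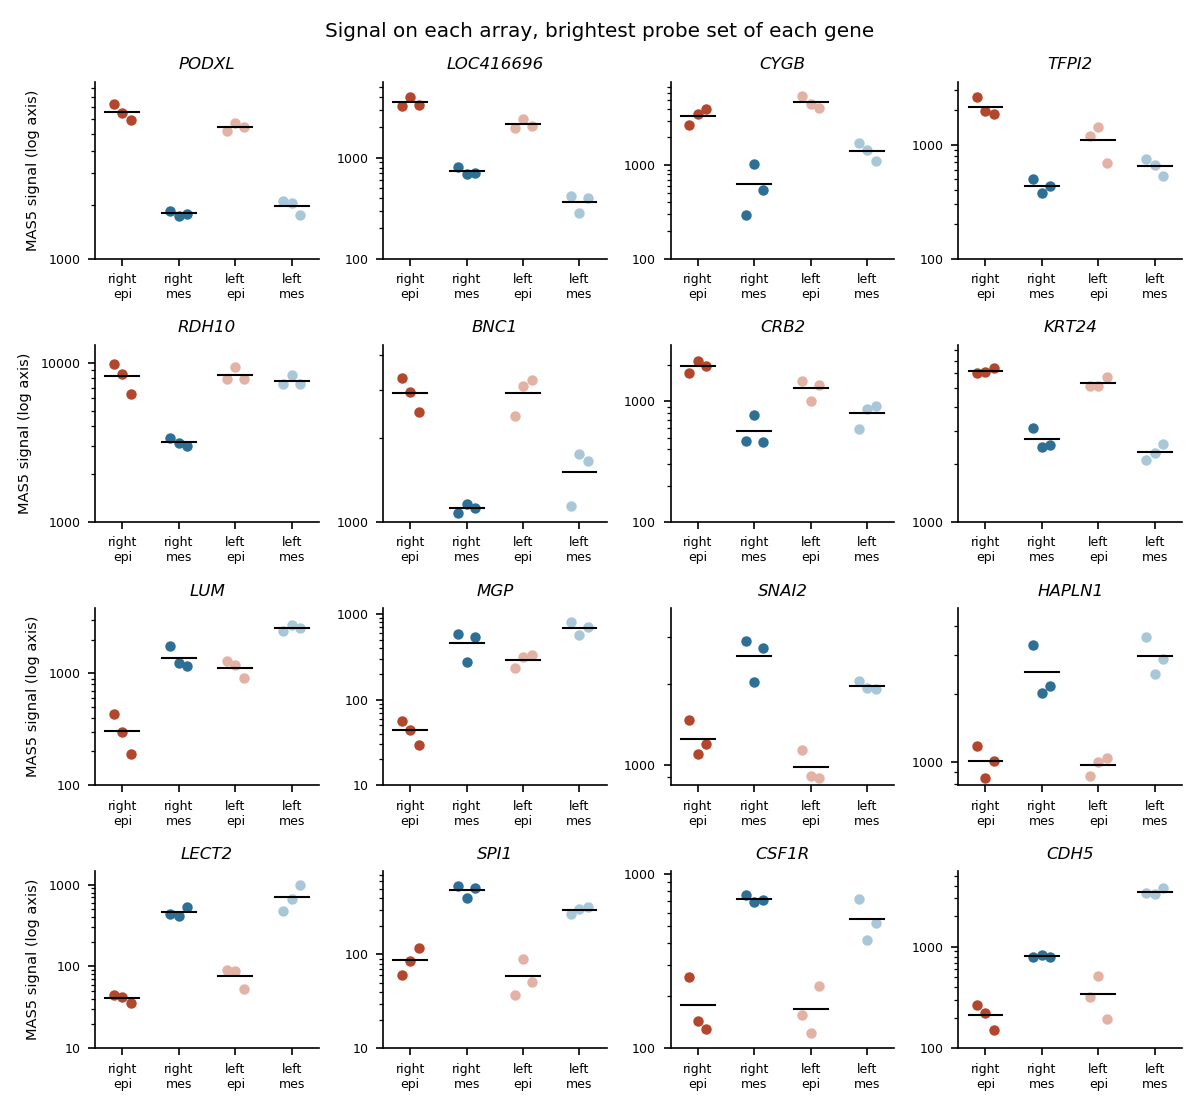
MAS5 signal (log axes, a different range in each panel) of 16 genes on each of the 12 arrays, with means of 3 arrays as bars. PODXL, LOC416696, CYGB, TFPI2, RDH10, BNC1, CRB2 and KRT24 lie higher in right epithelium, and LUM, MGP, SNAI2, HAPLN1, LECT2, SPI1, CSF1R and CDH5 higher in right mesenchyme. RDH10 in left mesenchyme (7371 to 8446) lies well above right mesenchyme (3014 to 3385).

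In retinoic acid synthesis, retinol is oxidised to retinal by RDH10 and retinal to retinoic acid by ALDH1A2, and CYP26 enzymes degrade the product. RDH10 gave 9842, 8545 and 6405 in the epithelium and 3385, 3139.6 and 3014 in the mesenchyme. Every epithelial array was above every mesenchymal one, the rise was 1.35 ± 0.12, adjusted p = 1.8e-05, and the other 3 probe sets rose by 1.40 to 1.96. RDH10 and ALDH1A2, described above, were the only 2 of 19 genes of the pathway that rose, and 0 fell (6 higher and 5 lower at an unadjusted p under 0.05; median 0.03). ALDH1A3, another retinal dehydrogenase gene, lay lower in the epithelium (-0.63, adjusted p = 0.15), LRAT, the retinol esterifying enzyme gene, lay higher (0.79, adjusted p = 0.38), and CYP26A1 differed by 0.58 (adjusted p = 0.15). The call of ALDH1A2 ended without 5 of the 6 arrays (adjusted p = 0.23 for ALDH1A2 without epithelium array 3).

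Matrix genes divided between the layers. Of 30 hyaluronan and proteoglycan genes 6 were lower and 2 higher in the epithelium (5 higher and 7 lower at an unadjusted p under 0.05), with a median of -0.05. LUM, the gene of the collagen-binding proteoglycan lumican, gave 435.5, 299.5 and 189 in the epithelium and 1759, 1234 and 1159 in the mesenchyme, a difference of -2.16 ± 0.20, adjusted p = 2.3e-05. HAPLN1, whose product links hyaluronan to proteoglycans, gave 1170.2, 847 and 1005 in the epithelium and 3306, 2013 and 2173.5 in the mesenchyme (-1.27 ± 0.17, adjusted p = 0.00091). Both genes had every mesenchymal array above every epithelial one.

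Versican, VCAN, a large hyaluronan-binding proteoglycan, differed by -0.95 ± 0.15, adjusted p = 0.0042, decorin, DCN, by -0.79 ± 0.13, adjusted p = 0.0045, and SPOCK1, a testican gene, by -0.92 ± 0.17. CD44, the gene of the hyaluronan receptor, differed by -2.65 ± 0.54 on a dim probe set above the floor on 1 of 3 epithelial arrays, with 87.2, 18.6 and 2.78 in the epithelium and 238, 201 and 285 in the mesenchyme, while 3 of its 4 probe sets had the opposite sign (up to 0.23). Another SPOCK1 probe set differed by 0.20. Both calls in the other direction were genes of cell surface heparan sulfate proteoglycans: syndecan SDC1 rose by 1.08 ± 0.17, adjusted p = 0.0037 on its brighter probe set and by 1.51 ± 0.31, adjusted p = 0.030, on the other, which was lost without at least 1 right array, and glypican GPC1 by 1.08 ± 0.24. GPC1 rested on mesenchyme array 1, at 519 against 1387.5 and 1525 on the others, and was lost without any 1 of the 6 arrays (adjusted p = 0.23 for GPC1 without mesenchyme array 1) and without the pairing (0.14). The hyaluronan synthase gene HAS2 was at 47.1 ± 7.71 and 81.2 ± 53.5 (-0.50). CD44 was lost without 5 arrays, SPOCK1 without 3 and VCAN without mesenchyme array 2, with adjusted p = 0.20 for CD44 without mesenchyme array 3, 0.12 for SPOCK1 without mesenchyme array 1 and 0.051 for VCAN without mesenchyme array 2.

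MGP, the gene of the mineral-binding matrix Gla protein, gave 57.0, 44.7 and 29.3 in the epithelium and 591, 272 and 535 in the mesenchyme and was lower in the epithelium by -2.97 ± 0.31, adjusted p = 8.7e-05. FNDC1, a fibronectin type III domain gene, gave 33.2, 30.7 and 22.5 in the epithelium and 407, 675 and 154 in the mesenchyme (-3.05 ± 0.44). Both were above the floor on 2 of 3 epithelial arrays. PRSS23, a secreted protease gene, and SELENOP1, the gene of the selenium carrier selenoprotein P, differed by -1.54 ± 0.16 and -1.85 ± 0.22, with 1 of the other 6 SELENOP1 probe sets at 0.03.

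Fibrillar collagens gave no call. COL1A1 was at 7652 ± 894 in the epithelium and 7054 ± 732.5 in the mesenchyme (0.12), COL3A1 differed by -0.09 and fibronectin FN1 by -0.09. Of 42 collagens and matrix glycoproteins 0 rose and 1 fell (5 higher and 7 lower at an unadjusted p under 0.05; median -0.14), the microfibrillar collagen gene COL6A1 (-0.98 ± 0.19). Of 33 basement membrane genes 2 rose and 0 fell (3 higher and 6 lower at an unadjusted p under 0.05; median 0.01). LAMA5, the laminin chain of mature epithelia, gave 1162, 1301 and 876 in the epithelium and 541, 570.3 and 371 in the mesenchyme and rose by 1.15 ± 0.18, adjusted p = 0.0035, and SMOC2, a calcium-binding matrix protein gene, rose by 0.81 ± 0.16, with its other probe set at -0.39. Of members whose brightest probe set did not pass, COL4A5 had another higher in the epithelium (0.75 ± 0.16), and LAMA4 and SMOC1 had dim ones lower in it. COL6A1 and SMOC2 were each lost without 5 of the 6 arrays (adjusted p = 0.16 for COL6A1 without epithelium array 2, 0.12 for SMOC2 without epithelium array 3).

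Transcription factors that drive the loss of epithelial character were compared next. SNAI2, the gene of the repressor Slug, gave 1463, 1093 and 1198 in the epithelium and 2891, 2034 and 2714.5 in the mesenchyme. Every mesenchymal array was above every epithelial one, a difference of -1.01 ± 0.14, adjusted p = 0.0014. ZEB2, a second repressor of E-cadherin, differed by -0.89 ± 0.15, adjusted p = 0.0051, with another of its 5 probe sets at 0.20. These were 2 of 10 such factors, 0 of which rose (1 higher and 5 lower at an unadjusted p under 0.05), and the list median was -0.37. ZEB1 (-0.30), SNAI1 (-0.45) and TWIST1 (-0.06) did not pass, and ZEB2 was lost without epithelium array 2 or mesenchyme array 2 (adjusted p = 0.067 for ZEB2 without mesenchyme array 2). Of the 28 mesenchyme markers 0 passed in either direction in limma (3 higher and 4 lower at an unadjusted p under 0.05; median 0.00), among them PDGFRA, the receptor gene of mesenchymal progenitors, at 3067 ± 259.5 and 3828 ± 358 (-0.32, adjusted p = 0.33).

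The lists of signals and receptors gave few calls or none. FGF9, a ligand made by mesothelium and other epithelia in mice, gave 161.5, 205 and 87.6 in the epithelium and 19.2, 18.3 and 48.8 in the mesenchyme and rose by 1.90 ± 0.41, adjusted p = 0.037, while FGFR2, a receptor gene, was lower in the epithelium (-0.62 ± 0.12, 3926 ± 364 against 6030.5 ± 428). FGF9 was above the floor on 1 of 3 mesenchymal arrays. These were the 2 calls among 29 FGF genes (3 higher and 3 lower at an unadjusted p under 0.05). Of 39 Wnt ligands and receptors RSPO3, a secreted enhancer of Wnt signals, rose by 0.92 ± 0.18 (6143 ± 132 against 3292 ± 786), the receptor gene FZD4 by 0.76 ± 0.17, and 0 fell (4 higher and 5 lower at an unadjusted p under 0.05). WNT5A had a difference of 0.83 (adjusted p = 0.070).

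The neuropilins, co-receptors of semaphorins and VEGF, were opposed: NRP2 rose by 1.32 ± 0.22 and NRP1 differed by -0.76 ± 0.15. NRG1, a ligand of ERBB receptors, was at 100.3, 145 and 129 in the mesenchyme and above the floor on 1 of 3 epithelial arrays (-2.35 ± 0.46). With TEK, given below, these made 1 rise and 3 falls among 42 growth factor ligands and receptors (6 higher and 6 lower at an unadjusted p under 0.05). BMPER, a secreted BMP modulator, was the single call of 44 BMP and TGF-beta genes (-0.92 ± 0.16), and LFNG, a Notch glycosyltransferase gene, that of 17 Notch genes (-1.24 ± 0.22, its other probe set at 0.04). At an unadjusted p under 0.05, 6 BMP and TGF-beta genes were higher and 4 lower, and 0 Notch genes were higher and 4 lower. No gene passed among 13 hedgehog genes (0 higher and 2 lower at an unadjusted p under 0.05) or 19 Wnt antagonists and targets (3 higher and 0 lower at an unadjusted p under 0.05).

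Each of these signalling calls ended without at least 1 right array. FGFR2, RSPO3, FZD4 and NRP1 were lost without 5 of the 6, FGF9, NRG1 and BMPER without 4, NRP2 without 3 and LFNG without 2. The highest values were adjusted p = 0.22 for FGF9 without epithelium array 2, 0.26 for FZD4 without mesenchyme array 3, 0.16 for RSPO3 without epithelium array 3, 0.14 for FGFR2 without mesenchyme array 1, 0.14 for NRG1 without mesenchyme array 2, 0.14 for NRP1 without mesenchyme array 1, 0.094 for LFNG without mesenchyme array 3, 0.089 for BMPER without epithelium array 2 and 0.061 for NRP2 without epithelium array 2. NRP2 had adjusted p = 0.055 without the pairing.

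Among 39 guidance genes 1 rose and 3 fell (4 higher and 9 lower at an unadjusted p under 0.05), with a median of 0.02. PLXND1, a semaphorin receptor gene known from vessels, gave 2321, 2333.5 and 2289 in the epithelium and 4357, 6744 and 5546 in the mesenchyme and differed by -1.23 ± 0.14, adjusted p = 0.00025. The chemokine gene CXCL12 gave 1993.5, 1429 and 1293 in the epithelium and 3284, 2812 and 3011 in the mesenchyme (-0.96 ± 0.13, adjusted p = 0.0010), and 3 of its 4 probe sets passed, all 4 lower in the epithelium. The ephrin receptor gene EPHA7 differed by -0.72 ± 0.15. ROBO2, a receptor of Slit proteins, rose by 1.32 ± 0.25 from 118, 102 and 152 to 315, 337 and 341, although another of its 5 probe sets differed by -0.79. EPHA7 and ROBO2 were lost without 5 arrays each (adjusted p = 0.16 for EPHA7 without mesenchyme array 1, 0.12 for ROBO2 without mesenchyme array 2).

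White blood cell markers that passed were all higher in the mesenchyme. Of 12 white blood cell markers 5 were lower in the epithelium and 0 higher (0 higher and 7 lower at an unadjusted p under 0.05), with a median of -1.10. SPI1, a transcription factor gene of myeloid cells, gave 60.0, 85.4 and 118.5 in the epithelium and 539, 402 and 507 in the mesenchyme (-2.29 ± 0.33, adjusted p = 0.0020). CSF1R, the receptor gene that marks macrophages, gave 258, 144 and 129 in the epithelium and 757, 689.7 and 710.3 in the mesenchyme (-1.99 ± 0.27, adjusted p = 0.0013). LAPTM5, a lysosomal gene of blood cells, CD74, the invariant chain of MHC class II, and the actin-bundling gene LCP1 differed by -1.90 ± 0.26, -1.57 ± 0.25 and -1.67 ± 0.32. The pan-leukocyte gene PTPRC was dim, at 49.3 ± 6.14 and 96.6 ± 37.4 (-0.74, adjusted p = 0.55), and LCP1 was lost without 5 arrays (adjusted p = 0.14 for LCP1 without mesenchyme array 3).

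Further genes that myeloid cells are known to express were among the 15 largest falls by brightest probe set, without being a list of their own. LECT2, in chicken a granule protein of myeloid cells, gave 44.5, 42.3 and 36.0 in the epithelium and 443, 418 and 527 in the mesenchyme, a difference of -3.07 ± 0.33, adjusted p = 0.00013. The defensin genes AvBD7, AvBD1 and DEFB4A (AvBD2), antimicrobial peptides of avian heterophils, differed by -3.20 ± 0.42, -2.45 ± 0.38 and -2.85 ± 0.37. In the epithelium AvBD7 and LYG2 were above the floor on 1 of 3 arrays, and AvBD1, LECT2 and CSF2RA on 2, so that their differences are partly set by signals near background. The goose-type lysozyme gene LYG2 gave 11.6, 43.6 and 3.61 in the epithelium and 279.8, 263 and 166 in the mesenchyme (-2.96 ± 0.44). TREM2, a myeloid surface receptor gene, was not above the floor in the epithelium and at least 4.35-fold higher in the mesenchyme. HAVCR1, of the TIM family of surface receptors, is not counted here as a myeloid gene. It was likewise not above the floor in the epithelium and at least 8.14-fold higher in the mesenchyme. CSF2RA, a GM-CSF receptor gene, differed by -2.45 ± 0.48 and was lost without 5 of the 6 arrays (adjusted p = 0.14 for CSF2RA without mesenchyme array 1). Opposite signs occurred on 1 TREM2 probe set (0.01). The part of the higher white blood cell marker sum in these falls was not tested.

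Endothelial genes lay on the same side. Of 27 endothelial markers 5 were lower in the epithelium and 0 higher (0 higher and 14 lower at an unadjusted p under 0.05), with a median of -0.98. CDH5, the gene of VE-cadherin, gave 268, 223 and 152 in the epithelium and 786.5, 839 and 790.3 in the mesenchyme, with no overlap (-1.87 ± 0.25, adjusted p = 0.0010). FLI1 (-1.89 ± 0.33), an endothelial and blood transcription factor gene, the tight junction gene CLDN5 (-1.68 ± 0.31) and the angiopoietin receptor gene TEK (-1.11 ± 0.20) followed, and the scavenger receptor gene STAB1, not above the floor in the epithelium, was at least 2.12-fold higher in the mesenchyme. Another probe set of STAB1 differed by 0.56. PECAM1 (-0.98, adjusted p = 0.20) and the VEGF receptor gene KDR (-0.26) did not pass. STAB1 was lost without any 1 of the 6 arrays, TEK without 5, FLI1 without 4 and CLDN5 without 2 (adjusted p = 0.12 for STAB1 without mesenchyme array 2, 0.074 for TEK without mesenchyme array 1, 0.090 for FLI1 without mesenchyme array 3, 0.11 for CLDN5 without mesenchyme array 2), and TEK had adjusted p = 0.058 without the pairing. The part of the higher endothelial sum in the other falls, PLXND1 and CXCL12 included, was not tested.

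The neural crest and smooth muscle lists held 1 call each. NEFM, a neurofilament gene, differed by -0.87 ± 0.15 and was the single call of 16 neural crest and neuron markers (0 higher and 2 lower at an unadjusted p under 0.05), while the glial precursor gene SOX10 was at 29.7 ± 26.7 and 52.1 ± 10.6. Outside that list, SLC6A2, the noradrenaline transporter gene, gave 479, 354 and 489.7 in the epithelium and 1636, 2276 and 1827.5 in the mesenchyme (-2.08 ± 0.20, adjusted p = 3.6e-05). KCNMB1, a potassium channel subunit gene of smooth muscle above the floor on 2 of 3 epithelial arrays, gave 108, 83.0 and 38.4 in the epithelium and 612, 594 and 371 in the mesenchyme (-2.60 ± 0.35, adjusted p = 0.0011), and KCNIP4, a potassium channel partner gene, differed by -1.46 ± 0.16. Of 19 smooth muscle and actomyosin genes only caldesmon, CALD1, passed by its brightest probe set (-0.48 ± 0.08). Another CALD1 probe set passed at -0.74 ± 0.10 (adjusted p = 0.0014) and kept its call without any single right array. In this list 7 genes had a positive and 12 a negative difference (1 higher and 8 lower at an unadjusted p under 0.05), and the median was -0.23. Of the other 7 probe sets of the tropomyosin gene TPM1, 2 passed, at -0.46 ± 0.10 and -0.52 ± 0.10. KCNMB1 and KCNIP4 are outside this list. So are MYL4, a myosin light chain gene (-1.20 ± 0.17), and NEXN, an actin-binding gene (-0.93 ± 0.20). MYL4 and NEXN were named after their values were seen and were lower in the epithelium. By their brightest probe sets CALD1 and NEFM were each lost without 2 arrays (adjusted p = 0.069 for CALD1 without mesenchyme array 3, 0.068 for NEFM without mesenchyme array 1).

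Few cell cycle genes passed, and those that did were higher in the epithelium. Of 31 measured genes 28 had a positive difference (as had 48.1% of all named genes), 3 rose and 0 fell (15 higher and 0 lower at an unadjusted p under 0.05), and the median was 0.27. The replication licensing gene CDT1 gave 693, 859 and 961 in the epithelium and 468, 330.2 and 175 in the mesenchyme (1.42 ± 0.26), the transcription factor gene E2F1 rose by 0.66 ± 0.15 and the ribonucleotide reductase gene RRM2 by 0.49 ± 0.10. MKI67, the proliferation marker, was at 3902 ± 411 and 2747 ± 262 (0.50, adjusted p = 0.069), and the clamp gene PCNA differed by 0.34. E2F1 was lost without any 1 of the 6 arrays, RRM2 without 5 and CDT1 without 4 (adjusted p = 0.27 for E2F1 without epithelium array 2, 0.15 for RRM2 without epithelium array 2, 0.10 for CDT1 without mesenchyme array 3).

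HMOX1, whose product breaks down heme, gave 293, 299 and 144 in the epithelium and 874, 1197 and 795 in the mesenchyme and was lower in the epithelium by -1.94 ± 0.26, adjusted p = 0.0012. It stood in a list of 15 immediate early and stress genes (2 higher and 3 lower at an unadjusted p under 0.05). Of these JUN also fell (-0.58 ± 0.10) and MYC rose (0.92 ± 0.20). JUN was lost without 4 arrays and MYC without any 1 of the 6 (adjusted p = 0.089 for JUN without mesenchyme array 1, 0.21 for MYC without mesenchyme array 3). The MYC arrays overlapped between the layers, and its adjusted p was 0.18 without the pairing. No gene passed among 25 HOX genes (0 higher and 3 lower at an unadjusted p under 0.05), 19 genes of glycolysis and hypoxia (2 higher and 3 lower at an unadjusted p under 0.05) or 10 red blood cell markers (1 higher and 0 lower at an unadjusted p under 0.05; median 0.36). The same held for 13 endoderm markers (1 higher and 1 lower at an unadjusted p under 0.05), 9 germ cell markers (3 higher and 0 lower at an unadjusted p under 0.05), 11 liver genes (0 higher and 0 lower at an unadjusted p under 0.05) and 12 genes of neural tube, notochord and somite muscle (1 higher and 1 lower at an unadjusted p under 0.05). The endoderm factor SOX2 was not above the floor on any right array.

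**Figure D4:**
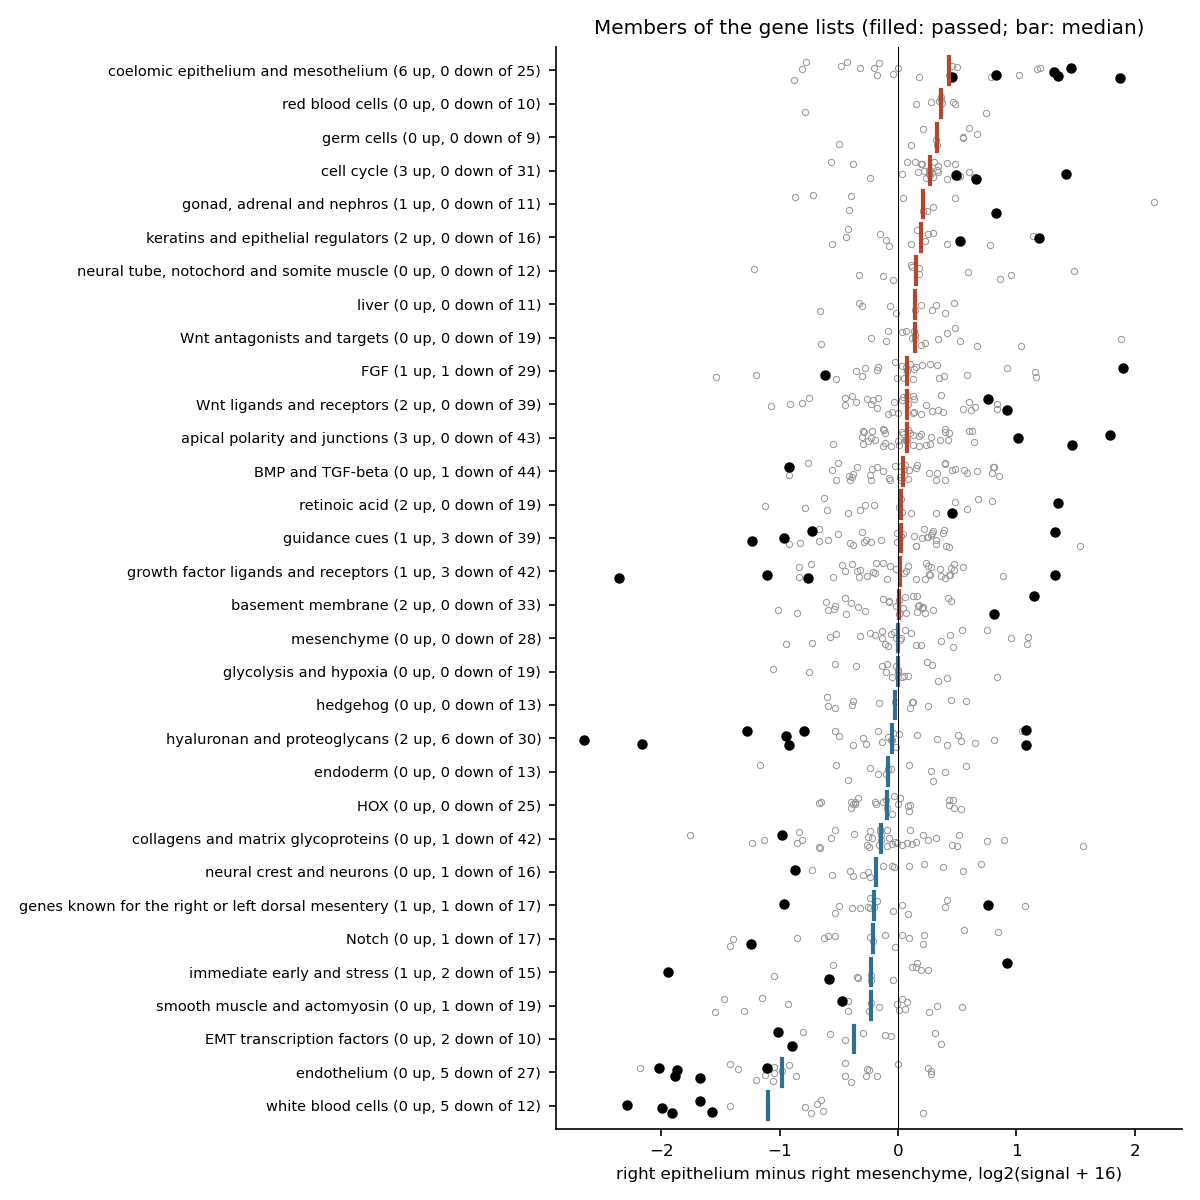
Difference of right epithelium minus right mesenchyme (x axis, log2(signal + 16)) for the measured members of 32 gene lists, 1 point per gene at its brightest probe set. Filled points passed the test and the bar is the list's median. White blood cells (-1.10) and endothelium (-0.98) have the lowest medians and coelomic epithelium (0.43) the highest.

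The left layers were then set beside the right ones to see which differences were particular to the right. On the left 371 probe sets passed (0.984%), and 132 passed on both sides, 39.4% of the right calls and 35.6% of the left ones, 0 of them with opposite signs. Of the 148 right rises 137 were positive on the left, and of the 187 right falls 178 were negative. Over all probe sets the right and left differences correlated at 0.246 (Pearson). The difference was larger on the right than on the left in 267 of the 335 right calls, which were selected by their right values. PODXL (1.47 on the left), KRT24 (1.20), BNC1 (0.95), LECT2 (-2.94), SNAI2 (-1.001) and CDH5 (-3.38) passed on both. By their brightest probe sets ITPK1 (0.31), CRB2 (0.69), TFPI2 (0.70) and MGP (-1.19) did not pass on the left. The difference between the sides did not pass for these probe sets either, with adjusted p = 0.24, 0.60, 0.13 and 0.47. Other CRB2 probe sets did pass on the left in limma, at 1.17 (adjusted p = 0.024) and 1.23 (adjusted p = 0.026), so the CRB2 rise was not particular to the right.

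The difference of the layer differences, right minus left, passed at 3 probe sets (0.00796%). At an unadjusted p under 0.05 in limma it gave 2118 of 37693, against 3891 for the right layer difference. That threshold lets through a share of about 0.05 where nothing differs, so the 2118 are not read as differences between the sides. RDH10 was the single named gene whose rise on the right passed this test. On the left it gave 7887, 9387 and 7979 in the epithelium and 7371, 8446 and 7427 in the mesenchyme, which overlapped. On 2 of the other 3 probe sets every left mesenchymal array was below every left epithelial one. The layer difference was 1.35 on the right and 0.12 on the left, differing by 1.24 ± 0.17 (adjusted p = 0.023). The other 3 RDH10 probe sets differed by 1.18 to 1.34 between the sides with adjusted p = 0.11 to 0.35. LOC419390, an uncharacterised gene, had a larger layer difference on the left (-3.88 against -1.04 on the right). On the right alone LOC419390 did not pass (adjusted p = 0.12). Left mesenchyme was its brightest compartment, at 3325, 3123 and 3904 against 415, 279.9 and 309 in right mesenchyme. The third probe set has no symbol, and its right layer difference did not pass either. Without single right arrays the interaction of RDH10 was lost in 5 of 6 cases, with adjusted p up to 0.13 (without mesenchyme array 2), and that of LOC419390 in 4 of 6, with adjusted p up to 0.12 (without the same array).

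Genes known for a side of the mesentery were also read across the layers of the right side. Of 17 such genes CXCL12 and FZD4, given above, were the 2 calls (4 higher and 2 lower at an unadjusted p under 0.05). The right-sided genes TBX18 (2447 ± 426 in epithelium, 2794.5 ± 61.9 in mesenchyme) and TNFAIP6 (239.6 ± 88.7, 103 ± 25.0; 1.07, adjusted p = 0.42) did not pass, and the left-sided factor ISL1 was at 176 ± 62.3 and 202 ± 33.6.

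**Figure D5:**
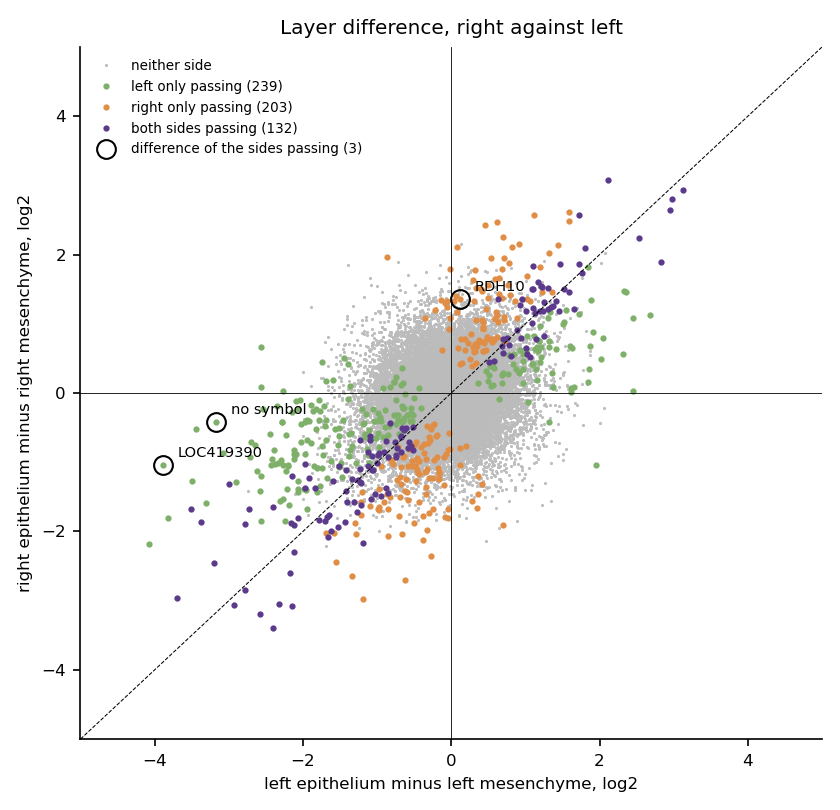
Layer difference (epithelium minus mesenchyme, log2(signal + 16)) on the right (y axis) against the left (x axis) for 37693 chicken probe sets. Coloured points passed on a side (132 on both, none with opposite signs) and the 3 ringed ones passed the test of the difference between the sides. The dashed line marks equal differences.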

How the data were processed

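RNA from laser-captured sections (5 ng of total RNA per labelling, per the labels' protocols) was amplified and hybridised to 12 one-colour Affymetrix chicken arrays, 3 for each of 4 compartments. The deposited values are intensities on a linear scale, MAS5 signals from GCOS per the submitters' processing notes (versions not given in the sources used here), and all arrays share a mean of 500.11 to 500.12 after trimming 2% at each end. Of 38535 probe sets, 96 controls and 746 of other targets were left out, and 37693 chicken probe sets were tested. Of these 27166 have 1 gene symbol in the platform annotation, which names 13008 genes, 177 have several and 10350 have none. The floor of an array is the 95th percentile of 59 control probe sets and ran from 19.3 to 39.6. Single genes were compared per probe set, never between probe sets, and strand was not examined.

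The test was limma 3.58.1 in R 4.3.3 on log2(signal + 16), fitted to all 12 arrays with compartment and experiment as terms, trended variance moderation and two-sided p-values adjusted by the Benjamini-Hochberg method over all chicken probe sets. The contrasts were the right layer difference, the left one and their difference. With 3 arrays against 3, an exact permutation test cannot give a p below 0.1. Each of 3 experiments gave all 4 compartments, per the series text, and the replicate number was taken as that of the experiment, which the labels do not state. Deviations of same-numbered right arrays correlated at -0.007 to 0.037, so the data themselves do not show the pairing.

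The genes named are the 15 highest and 15 lowest changes among called probe sets with 1 symbol, a change of at least 2-fold, the same sign in 3 experiments and a signal above the floor on all arrays of the higher layer, up to 6 each way for the interaction, and list members that passed or define a list. A gene stands by its brightest probe set, and opposing probe sets are reported. The 32 lists hold 818 names, 698 of them measured, and the members and lists were chosen with earlier results of these data known. Alternatives were other pseudocounts, a filter, quantile normalization, array weights, no trend, no pairing, the right arrays alone, and arrays or experiments left out.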

Additional observations from a re-analysis of the deposited data

Results flagged for a closer look

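The layer difference itself differed between the right and the left side at 3 probe sets in the interaction test of limma. For RDH10 the right difference exceeded the left by 1.24 ± 0.17 on the log2 scale (adjusted p = 0.023). For LOC419390 the right difference lay above the left by 2.85 ± 0.39 (adjusted p = 0.023), since both were negative and the left one was the larger in size. The right difference of LOC419390 did not itself pass (adjusted p = 0.12). A probe set without a gene symbol showed the same kind of gap, 2.75 (adjusted p = 0.0045), with 603, 410 and 520 in right epithelium, 844, 625 and 601 in right mesenchyme, 273, 264 and 156 in left epithelium and 2138, 1965 and 2347 in left mesenchyme. Its right layer difference, -0.42, did not pass (adjusted p = 0.53), and its right arrays overlapped between the layers.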

How the results depend on the processing

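The pairing takes the replicate number for the experiment, which the labels do not state. Without the replicate block 323 probe sets passed on the right (138 higher and 185 lower), 380 on the left and 4 in the interaction, and 302 of the 335 right calls passed in both fits. Among the named genes, the unpaired fit changed the call of ADCY1, HEG1, ALDH1A2, EMX2, GPC1, MYC, NRP2 and TEK and of no other. Fitted on only the 6 right arrays, 216 passed (94 higher and 122 lower). Without the intensity trend in the variance 78 passed on the right (36 higher and 42 lower), 115 on the left and 0 in the interaction in limma. The interaction then had 2228 of 37693 probe sets at an unadjusted p under 0.05, a threshold that lets through a share of about 0.05 where nothing differs. A filter at the 40th percentile of mean signal left 22616 probe sets, of which 441 passed on the right (204 higher and 237 lower) and 6 in the interaction. Leaving out 1 right array or 1 experiment at a time gave 63 to 246 right calls, with 32 to 107 higher and 31 to 139 lower, 71 to 406 left calls and 0 to 8 interaction calls. The interaction of RDH10 had adjusted p up to 0.87 (without experiment 2) and that of LOC419390 up to 0.60 (without experiment 3). Pseudocounts of 1 and 64, quantile normalization and array weights gave 328, 326, 329 and 304 right calls. Of 79 named genes 13 passed under all 17 alternatives (CRB2, CYGB, HMOX1, ITPK1, KRT24, LECT2, LOC416696, LUM, MGP, PODXL, RDH10, SST1 and TFPI2), 66 lost the call under at least 1, and 0 changed sign; for results not printed here the cause was not tested. Precision is limited by 3 arrays per layer and by signals near the floor in genes such as HAVCR1, LYG2 and NRG1. Sections were pooled, and the number of embryos behind an array is not stated.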

Other observations

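Further named genes passed on the right and were outside the lists. The genes in this paragraph were chosen after their values were seen, and each kept the call of at least 1 probe set without any 1 of the 6 right arrays. On the mesenchymal side lay DACT1, whose product regulates Dishevelled in Wnt signalling, with 758, 1090.5 and 752 in the epithelium and 1795.5, 1927 and 1975 in the mesenchyme (-1.14 ± 0.16, adjusted p = 0.0019). DIO3, the gene of the deiodinase that inactivates thyroid hormone, gave 742, 1296.5 and 704 in the epithelium and 2146, 2645 and 1384 in the mesenchyme (-1.16 ± 0.18), and the protease gene ADAMTS9, whose product cleaves versican, was lower in the epithelium by -1.09 ± 0.18 on the probe set that passed, with 1 of its other 8 at 0.05. The cell adhesion genes CDH6 and PCDH9, a cadherin and a protocadherin, differed by -1.14 ± 0.19 and -1.66 ± 0.25, and all 4 PCDH9 probe sets were lower in the epithelium. The homeobox gene HHEX, which blood and endothelial precursors express, differed by -1.41 ± 0.21.

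On the epithelial side RCAN2, a regulator of calcineurin, gave 1364, 1092 and 1048 in the epithelium and 422.5, 456 and 327 in the mesenchyme (1.51 ± 0.19, adjusted p = 0.00054), and the DNA repair gene BRCA1 rose by 0.66 ± 0.11 on the probe set that kept its call, by 0.44 ± 0.10 on a second that did not keep it, and was at -0.09 on another of the 4. On the left, RCAN2 (1.10) and HHEX (-1.42) passed as well. DACT1 was at -0.17 there and PCDH9 at 0.35, and neither passed on the left. The difference between the sides did not pass for DACT1 (adjusted p = 0.46) or PCDH9 (adjusted p = 0.12). The 66 called probe sets without a single symbol are not described further.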
